A study of Rattus norvegicus with 10 samples.

Results

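Ketone body use and monocarboxylate transport were described in tissue dissected as the arcuate nucleus (ARC) of Wistar rat dams. The genes listed were *Oxct1*, *Bdh1*, *Acat1*, *Slc16a1*, *Slc16a3* and *Slc16a7*. These 6 genes were matched by their symbols to the authors' deposited table, and 5 of them had a row among its 12828 genes. *Slc16a3* was not analysed here. *Oxct1* was chosen by its high rank in the authors' own comparison of the diets, whose values are not given here, and the others were chosen by function. RNA was sequenced from the ARC of 10 dams, 5 on a diet with folic acid at 5X the recommended level (5X-FA) and 5 on one with methylfolate at 5X (5X-MTHF). All were first-time mothers, fed these diets through pregnancy only, with tissue taken at parturition after a daytime fast. The ARC, a hypothalamic cell group beside the third ventricle that responds to nutrients and hormones, was cut out freehand from frozen slices, so each library is bulk tissue of many cell types.

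The study asked whether the form of folate in the diet of pregnancy changes gene expression in the ARC. For the 5 members this comparison of 5X-MTHF with 5X-FA dams was not made here, because 10 columns of values per sample carry headings that match no label of a dam or diet. No direction or size of a diet difference is therefore given for any of these genes. What follows describes their promoters and their reads over all libraries together.

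Ketone bodies are made by the liver during fasting and late pregnancy and are burned by the brain beside glucose. They reach brain cells, like lactate and pyruvate, through proton-coupled monocarboxylate transporters of the Slc16 family. Inside mitochondria, 3-hydroxybutyrate is oxidised to acetoacetate by the enzyme of *Bdh1*. Acetoacetate is then activated with coenzyme A by the enzyme of *Oxct1* and split to acetyl-CoA by that of *Acat1*. MCT1, encoded by *Slc16a1*, is known from brain endothelium and glia, MCT2 (*Slc16a7*) is a high-affinity carrier of neurons, and MCT4 (*Slc16a3*) is known for lactate export from astrocytes.

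The promoters of 3 members are shown first, as they span the range of CpG content among the 5 genes and belong to the enzyme with the most reads and to both monocarboxylate transporters. Each is the run of 250 bases before the transcript start used in the RefSeq promoter set on GRCr8, 5′ to 3′ on the strand of the gene, with CpG dinucleotides in capitals. The *Oxct1* promoter is chr2:54963714-54963963 on the + strand, that of *Slc16a1* is chr2:194812410-194812659 on the + strand, and that of *Slc16a7* is chr7:63040399-63040648 on the - strand. For *Slc16a1*, *Slc16a7* and *Bdh1* this start lies 7104, 56597 and 5497 bp inside the outermost end of the gene in RefSeq, so that other promoters of these genes are not covered.
Oxct1: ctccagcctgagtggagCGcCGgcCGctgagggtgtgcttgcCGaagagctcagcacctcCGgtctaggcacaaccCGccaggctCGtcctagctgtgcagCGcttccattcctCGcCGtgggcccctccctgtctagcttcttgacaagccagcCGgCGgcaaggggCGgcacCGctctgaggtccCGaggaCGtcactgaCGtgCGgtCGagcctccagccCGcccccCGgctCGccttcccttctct
Slc16a1: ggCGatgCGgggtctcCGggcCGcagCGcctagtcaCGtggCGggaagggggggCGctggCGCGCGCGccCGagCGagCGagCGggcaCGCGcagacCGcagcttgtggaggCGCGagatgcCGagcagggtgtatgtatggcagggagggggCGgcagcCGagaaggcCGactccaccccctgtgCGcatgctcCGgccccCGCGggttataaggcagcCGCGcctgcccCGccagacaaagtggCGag
Slc16a7: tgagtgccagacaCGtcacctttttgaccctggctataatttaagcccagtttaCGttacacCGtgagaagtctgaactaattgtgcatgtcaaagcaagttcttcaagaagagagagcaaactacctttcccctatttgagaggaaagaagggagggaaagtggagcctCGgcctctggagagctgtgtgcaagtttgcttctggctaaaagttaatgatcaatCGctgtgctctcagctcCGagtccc

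The *Slc16a1* promoter held 33 CpG dinucleotides, at percentile 95.8 of the promoters of 21851 protein-coding genes in the RefSeq set, whose median was 8. *Oxct1* had 22 and *Bdh1* had 19, which placed them at percentiles 83.1 and 76.9. *Acat1* had 11, at percentile 57.2. *Slc16a7* had 6 and was the only member under the median, at percentile 42.8. The G and C content followed the same order, from 74.0% in *Slc16a1* to 47.2% in *Slc16a7*, against a median of 54.0%. Thus the pair of transporters lay at opposite ends of the 5 genes, and the enzymes of ketone oxidation lay between them.

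**Figure D1:**
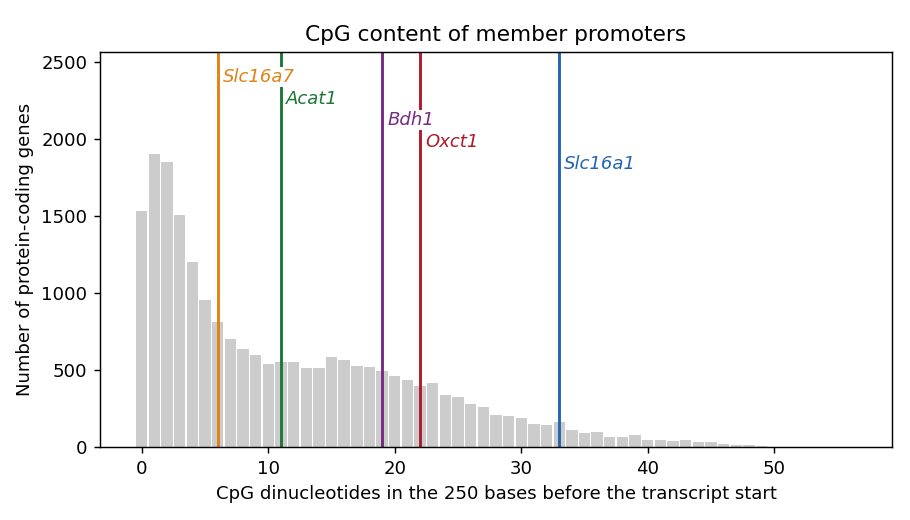
Number of CpG dinucleotides in the 250 bases before the transcript start (x axis) for 21851 protein-coding genes of the RefSeq set (grey bars, number of genes on the y axis), with 1 vertical line for each of the 5 members. *Slc16a7* lies at 6, at the left end of the members, and *Slc16a1* at 33.

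Short motifs were searched on both strands of the same 250 bases. The GC box, GGGCGG, was found in 4 members, *Oxct1*, *Slc16a1*, *Acat1* and *Bdh1*, and in 38.9% of the protein-coding promoters. The CCAAT box, spelled CCAAT, was found in 1 member, *Acat1*, and in 35.0% of promoters. The E-box CACGTG was present in *Slc16a1* and in 6.16% of promoters. TGACGT, the longer part of the cAMP response element, was present in *Oxct1* and *Slc16a7* and in 7.90% of promoters. TATAAA was found in 0 of the 5 members and in 12.1% of promoters. The motifs searched are different words of which none contains another, and each match is a description of the letters only.

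Reads were then examined gene by gene. The value used is the authors' average log2 CPM, the log2 of counts per 1000000 assigned reads (CPM), given as 1 value per gene that names no sample and is taken here as an average over all libraries. It is not divided by transcript length, so that a longer transcript takes more reads at the same number of molecules, and differences between genes are given as differences in reads only. It is a single pooled value, for which no spread between dams and no value per diet was obtained. The lowest value of the table was -2.07 and the highest 14.56. The median of 4.94 corresponds to 30.7 CPM. The table is marked by the authors as filtered, so percentiles and this median refer only to the genes that were kept. Why a listed gene has no row was not tested.

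*Oxct1*, encoding the mitochondrial transferase that commits acetoacetate to oxidation, had the most reads of the 5 genes. The authors' average log2 CPM was 8.02, or 259 CPM, which ranked 589th from the top and at percentile 95.4 of the table. The gene (ENSRNOG00000043094) lies on chromosome 2 of Rnor_6.0 from 53859737 to 54007756, a span of 148020 bp. *Acat1*, the mitochondrial thiolase that completes the pathway and also serves isoleucine breakdown, had 6.01, or 64.3 CPM, at percentile 71.7. It lies on chromosome 8 from 58166990 to 58195884 (ENSRNOG00000007862). *Bdh1*, the dehydrogenase of the inner mitochondrial membrane that takes 3-hydroxybutyrate to acetoacetate, had 4.76, or 27.0 CPM. At percentile 46.1 it was the one ketone enzyme under the table median. It lies on chromosome 11 from 72578533 to 72614176 (ENSRNOG00000001736). Of the reads assigned to these 3 enzymes together, 351 CPM, *Oxct1* took 74.0%, *Acat1* 18.3% and *Bdh1* 7.70%.

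The transporters differed in reads as well. *Slc16a1* had an average log2 CPM of 6.39, or 83.7 CPM, at percentile 78.7. The gene (ENSRNOG00000019996) lies on chromosome 2 from 207108552 to 207128554, on the same chromosome as *Oxct1*. *Slc16a7* had 3.32, or 10.01 CPM, at percentile 20.1, the fewest of the 5 genes. It lies on chromosome 7 from 68446193 to 68549763 (ENSRNOG00000007839). All 5 genes are protein-coding, and 0 other rows of the table overlap the span of any of them. In all, 3 of the 5 members were above the table median, namely *Oxct1*, *Slc16a1* and *Acat1*.

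**Figure D2:**
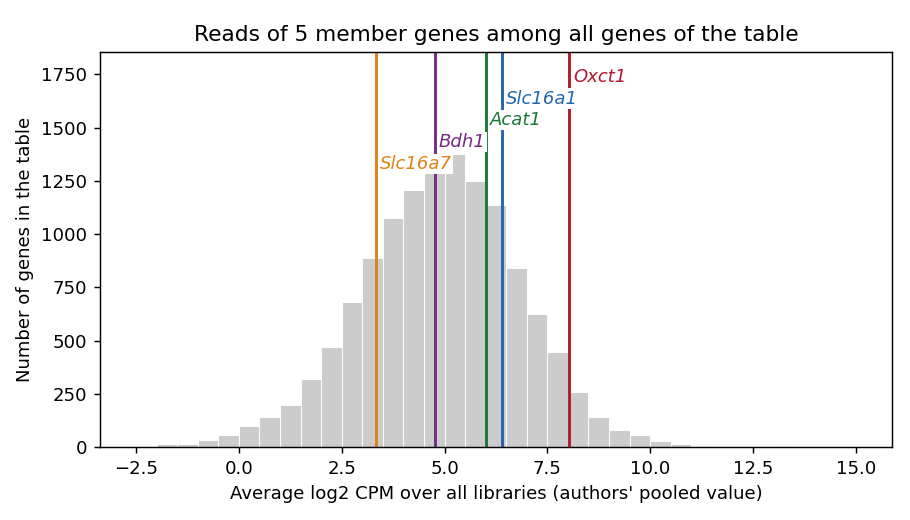
Distribution of the authors' average log2 CPM over all libraries (x axis) for the 12828 genes of the table (grey bars, number of genes on the y axis), with 1 vertical line per member. *Oxct1* lies in the upper tail at 8.02, *Slc16a1* at 6.39 and *Acat1* at 6.01 lie to the right of the centre, *Bdh1* at 4.76 is close to the median of 4.94, and *Slc16a7* at 3.32 lies to the left.

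Within the Slc16 family, 9 genes had a row and together took 180 CPM. *Slc16a1* held 46.4% of these reads and *Slc16a7* held 5.55%, the fifth of the 9. *Slc16a11*, a family member whose substrates are less well known, had 13.7%. Among the 17 listed genes of other carriers and their partners, 9 had a row and 1 lay above the table median. This was *Bsg*, with an average log2 CPM of 8.63 or 395 CPM, which encodes basigin, the membrane partner that MCT1 and MCT4 need to reach the cell surface. *Emb*, encoding embigin, the partner of MCT2, had 4.85, and *Slc16a11* had 4.62.

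The other genes of ketone body metabolism include those that make ketone bodies and those that turn acetoacetate to lipid in the cytosol. Of 10 listed, 7 had a row, and their average log2 CPM lay between 1.91 and 8.72, with 5.24 as the median. *Hmgcs1*, the cytosolic synthase of the cholesterol pathway, had the highest value of 8.72. *Hmgcll1*, a lyase outside mitochondria, had 5.49, and *Aacs*, which activates acetoacetate in the cytosol and was named after its value was seen, had 5.24. *Acat2*, the cytosolic thiolase, had 4.59 and was named after its value was seen. The similarly named *Acat2l1* lies next to it on chromosome 1 without overlap, and whether reads are shared between these genes was not tested.

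Lactate and pyruvate are the other fuels that these transporters carry. Of 20 listed symbols, a pair of which name the same gene, 17 had a row and 13 lay above the table median. The median average log2 CPM was 6.23. The leading genes were *Ldhb* at 8.83, *Ldha* at 7.95 and *Pdha1* at 7.88, which encode the subunits of lactate dehydrogenase and the catalytic subunit of pyruvate dehydrogenase. *Oxct1* lay between *Ldhb* and *Ldha* in CPM, at 259 against 455 and 248. For fatty acid oxidation, 20 of 23 listed genes had a row, 15 lay above the table median, and the median was 5.28. The acyl-CoA synthetases *Acsl6* and *Acsl3* led with 8.40 and 8.35, followed by *Hadha* of the trifunctional protein at 7.35.

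**Figure D3:**
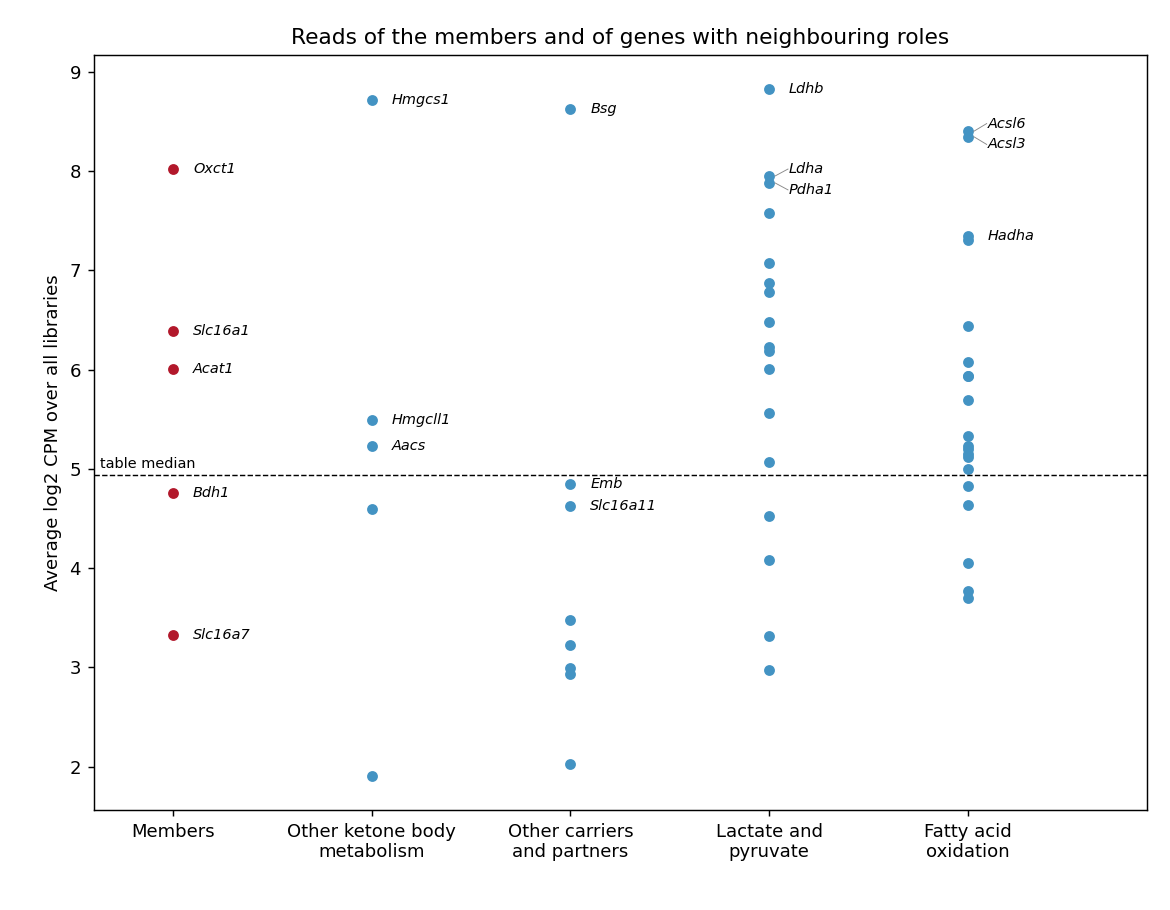
Authors' average log2 CPM over all libraries (y axis) of the 5 members (red) and of genes with neighbouring roles (blue) in 4 columns, where each point is 1 gene, the 3 highest genes drawn of each list are labelled, a few genes of the lists are not drawn, and the dashed line is the table median of 4.94. *Oxct1* at 8.02 lies near *Ldha* and *Pdha1*, whereas *Slc16a7* at 3.32 lies among the transporters with few reads.

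The label of the tissue was checked against markers. Of 10 genes listed as markers of arcuate neurons, 9 had a row, with an average log2 CPM between 0.08 (*Kiss1*) and 6.02 (*Cartpt*). *Pomc* and *Agrp* had 4.67 and 1.42. *Nr5a1* of this list, at 1.88, is better known from the neighbouring ventromedial nucleus, so the list is not of arcuate neurons alone. All 6 markers of oligodendrocytes and all 6 of astrocytes had a row, from 7.26 to 12.59 and from 5.51 to 10.22. Of the 6 neuronal markers, 5 lay between 6.14 and 10.44, and the row named *Eno2*, on chromosome 9, stood apart at 2.44. The 6 markers of microglia ranged from 3.83 to 6.82. For endothelium 4 of 6 had a row, from 4.45 to 6.81, and for tanycytes, which line the third ventricle, 4 of 6, with *Rax* at 0.08. Markers of regions outside the ARC also had rows, with all 6 of striatum between 4.26 and 7.07 and all 6 of thalamus between 2.34 and 7.43. Of the 6 markers of cerebral cortex and hippocampus, 5 had a row, between 2.40 and 8.44. The median of the arcuate neuron list, *Nr5a1* included, was 2.45, with 2 of 9 genes above the table median. It was higher for striatum at 5.19 (4 of 6), thalamus at 5.04 (3 of 6) and cerebral cortex and hippocampus at 7.17 (3 of 5). The reads of each member are a sum over all these cells, in which fewer cells of a type and less RNA per cell cannot be told apart, and the part of any cell type or region in the members' reads was not tested.

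**Figure D4:**
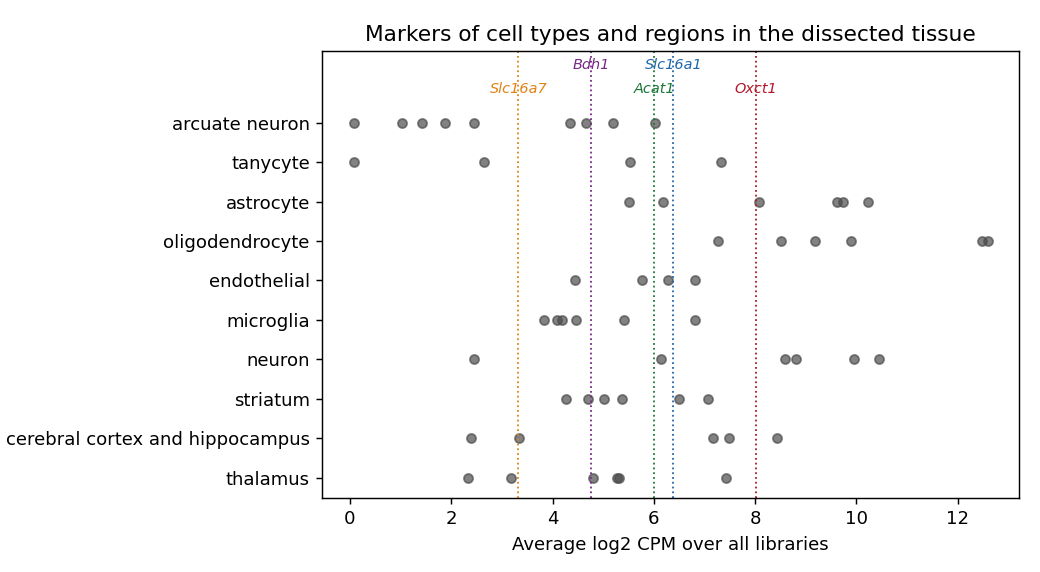
Authors' average log2 CPM over all libraries (x axis) of marker genes of 10 cell types and regions (y axis), 1 point per gene, with dotted lines at the 5 members. Markers of oligodendrocytes reach 12.59 and those of arcuate neurons reach 6.02, while *Slc16a7* and *Oxct1* are at 3.32 and 8.02.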

How the data were processed

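RNA of the ARC of 10 dams was poly-A selected and sequenced as read pairs by the authors. Per the methods and the submitters' processing notes, reads were trimmed with Trim Galore 0.5.0, aligned with STAR 2.6.0c to Rnor_6.0 and counted per Ensembl gene with HTSeq 0.6.1p2. The authors deposited 1 table of 12828 genes, 12383 of them protein-coding, which is marked as filtered. The methods describe a minimal filter on reads per gene, and whether this is the filter of the deposited values is not given. Its average log2 CPM, as deposited by the authors, is on a log2 scale and holds 1 value per gene over the libraries. How it was made is not given in the sources used here. Its base was settled from the values, since the powers of 2 sum to 1002152 over the table, near the 1000000 of a CPM scale.

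The table also holds 4 columns of the authors' own comparison of the diets (fold change, test statistic, p-value and FDR), which were not used. A further 10 per-sample columns have headings that match no sample label and were used in no step. The tests planned for values per dam were therefore not run. The methods give an approximate depth per sample, but the reads counted in each library were not obtained here, and no error, interval or test of diet is given.

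Members were matched by exact symbol. Percentiles were computed over the table, and 2 to the power of the value gave CPM. The 4 pathway lists and 10 marker lists, and the members, were chosen with earlier results of these data known. The members and the 3 genes of each pathway list with the highest value were named, and any other is a marker, belongs to the same gene family as a member or is marked as named after its value was seen. Some genes of the lists, 1 of them selected by this rule, are not reported here. RefSeq promoters (GRCr8) were matched by symbol for 5 of 5 members, and the 50 bases after the start were left out. Promoter coordinates are of GRCr8 and gene coordinates of Rnor_6.0. The calculations were tested on simulated data. Python 3.11.15, pandas 2.3.3, numpy 2.4.6, scipy 1.17.1 and matplotlib 3.10.9 were used.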

Additional observations from a re-analysis of the deposited data

How the results depend on the processing

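The members were ranked again within parts of the table. These parts hold 12383 and 12462 of its 12828 genes, so a large shift in percentile was not possible. Small shifts therefore do not show that the places would hold against a different set of genes. Among protein-coding genes only, *Bdh1* moved from percentile 46.1 to 44.6 and *Slc16a7* from 20.1 to 18.3. *Acat1* went from 71.7 to 70.9, *Slc16a1* from 78.7 to 78.2 and *Oxct1* from 95.4 to 95.3. Among the 12462 genes that reach a log2 CPM of 1, *Acat1* moved from 71.7 to 70.8, *Bdh1* to 44.5 and *Slc16a7* to 17.8. *Slc16a1* was then at 78.1 and *Oxct1* at 95.3. The first alternative removes genes by biotype and the second removes those with the lowest average values, and the order of the 5 members is the same by construction. No paired analysis was possible because the columns of values per sample carry no label of a dam or replicate. Because the columns of values per sample carry no label of a dam or diet, the alternatives on pseudocount, low-value filter, normalization and leaving out a dam were not run.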
